A study of Mus musculus with 16 samples.

Results

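The transcripts of 9 genes that place, maintain or remove DNA methylation were followed in 2 populations of multipotent progenitors from mouse bone marrow. They are the methyltransferase genes Dnmt1, Dnmt3a and Dnmt3b, the UHRF genes Uhrf1 and Uhrf2, the dioxygenase genes Tet1, Tet2 and Tet3, and the glycosylase gene Tdg. They were taken by symbol as a functional group, with no threshold on a measured value but with earlier results of these data known, and each matched 1 of the 47937 gene identifiers in the count tables. Tests were restricted to 11831 genes whose mean exceeded 100 counts in at least 1 group, and 9 of 9 passed.

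Methylation of cytosine in CpG dinucleotides is copied to the new strand after DNA replication by DNMT1, which UHRF1 guides to hemimethylated sites. DNMT3A and DNMT3B methylate sites anew, while TET enzymes oxidise 5-methylcytosine and TDG excises the further oxidised bases, so that repair puts back an unmodified cytosine. In the blood system, Dnmt3a and Tet2 are known for restraining the self-renewal of stem cells, and both are recurrently mutated in human clonal haematopoiesis and myeloid leukaemia.

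Poly(A) RNA of sorted MPP3 cells, which are biased toward myeloid fates, and MPP4 cells, which are biased toward lymphoid fates, was sequenced from C57BL/6 mice labelled WT or KO for Ebf1, a transcription factor gene of the B lineage. Each combination of population and label held 4 libraries, 16 in all, and each mouse gave 1 library of each population as far as number, sex, age and genotype show. By the sample labels, WT mice were Ebf1fl/fl Tie2Cre+/+ and KO mice Ebf1fl/fl Tie2Cre +/cre, where a Cre driven by the Tie2 (Tek) promoter acts in endothelial and blood-forming cells. The series description gives WT mice the transgene and unfloxed Ebf1 instead, so a difference in the alleles and one in the transgene cannot be told apart. Mice 1 to 4 labelled WT had ages of 12, 11, 12 and 11 weeks and mice 1 to 4 labelled KO ages of 10, 9, 11 and 11 weeks, with 2 females and 2 males per genotype. Cells were depleted of lineage-positive cells and gated as LSK CD150- CD48+, and the MPP4 gate added Flt3+, whereas the labelled MPP3 gate named no Flt3 status.

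Libraries held between 24823708 and 48703193 counts, so even Tet2, the lowest of the 9 genes, was read with at least 332 counts in every library. Levels are given as normalised CPM, in which a count is scaled by the TMM-normalised library size. Flt3, which separates the gates, stood at 281 ± 25.3 CPM (SD, n = 4) in MPP3 and 1229 ± 92.1 CPM in MPP4 labelled WT, and at 247 ± 37.0 CPM in MPP3 and 1009 ± 64.4 CPM in MPP4 labelled KO, and Slamf1, which encodes CD150, reached at most 3.49 CPM in any library. The summed markers of T cells, macrophages, endothelium and mature neutrophils stayed at or below 10.0, 31.0, 37.3 and 76.6 CPM. Ebf1 itself lay between 0.150 and 2.19 CPM in MPP3 labelled WT and between 0.151 and 2.23 CPM in MPP3 labelled KO. In MPP4 it lay between 3.32 and 6.19 CPM in the libraries labelled WT and between 17.6 and 24.9 CPM in those labelled KO, which goes against the label. Cd79a, a B lineage gene known as a target of EBF1, lay between 1.75 and 3.47 CPM in MPP3 labelled WT and between 0.0262 and 0.663 CPM in MPP3 labelled KO. In MPP4 it lay between 1.59 and 7.30 CPM in the libraries labelled WT and between 0 and 0.963 CPM in those labelled KO, so its groups did not overlap in either population, and Pax5 had 0 counts in every MPP4 library labelled KO. Cd79b, which made up most of the summed B cell markers, overlapped between labels. Directions between genotypes below are given as labelled.

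The maintenance pair came first. Dnmt1 (ENSMUSG00000004099), which encodes the maintenance methyltransferase, lies on the minus strand at chr9:20907209-20959888 of GRCm38, with 7377 bases of exons. Uhrf1 (ENSMUSG00000001228), whose product recognises hemimethylated DNA, lies on the plus strand at chr17:56303321-56323486 with 4259 bases of exons, and its paralogue Uhrf2 (ENSMUSG00000024817), whose product binds hydroxymethylated DNA, at chr19:30030513-30093722. Of the de novo enzymes, Dnmt3a (ENSMUSG00000020661) lies at chr12:3806007-3914443 and Dnmt3b (ENSMUSG00000027478) at chr2:153649450-153687730. The TET genes, whose products carry out successive oxidation steps, lie at chr10:62804570-62908996 (Tet1, ENSMUSG00000047146), chr3:133463679-133545139 (Tet2, ENSMUSG00000040943) and chr6:83362373-83459084 (Tet3, ENSMUSG00000034832). Tdg (ENSMUSG00000034674), which encodes thymine DNA glycosylase, lies at chr10:82629828-82650799 and shares 367 exon bases, 6.83% of its exon length, with Glt8d2 on the opposite strand. The use of strand in counting is not given in the sources used here, so reads in that stretch are uncertain, as are those in the 133 exon bases that Dnmt3a shares with Dnmt3aos and the 43 that Tet2 shares with Gm42567.

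The start sites of the 9 genes differed widely in CpG content. Of the RefSeq windows of 250 bases before a gene's start (GRCm38.p6), the median over 32851 windows was 6 CpGs, with quartiles of 2 and 16. The window of Tet2 held 51 CpGs and that of Dnmt3a 38, while the window at the 5′ end of Dnmt1 held 2. Uhrf2 had 23, Dnmt3b 21, Tdg 19, Tet3 17, Tet1 15 and Uhrf1 10 CpGs. Where RefSeq lists several starts, the one nearest the GENCODE 5′ end was used, which matters for Dnmt1, since windows at its other 2 starts, 6909 and 7265 bases inside the gene, held 7 and 26 CpGs. The second start of Uhrf1, 992 bases inside, had 30 CpGs, and the other 2 of Dnmt3a had 40 and 15. Which starts these cells use was not measured here, and the only starts listed for Tet1 and Tet3 lie 21672 and 17406 bases inside the GENCODE gene. The windows of Dnmt1, Uhrf1 and Dnmt3b, the 3 genes with an unadjusted p under 0.05 between mice labelled KO and WT, are printed 5′ to 3′ on the strand of the gene, with CpGs in capitals. They are chr9:20959889-20960138 (minus strand, Dnmt1), chr17:56303087-56303336 (plus strand, Uhrf1) and chr2:153649199-153649448 (plus strand, Dnmt3b).
Dnmt1: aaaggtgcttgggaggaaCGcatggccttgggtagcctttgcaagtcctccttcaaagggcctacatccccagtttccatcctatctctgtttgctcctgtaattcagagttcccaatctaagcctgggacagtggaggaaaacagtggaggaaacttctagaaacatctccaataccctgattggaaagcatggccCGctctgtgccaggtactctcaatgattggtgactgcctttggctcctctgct
Uhrf1: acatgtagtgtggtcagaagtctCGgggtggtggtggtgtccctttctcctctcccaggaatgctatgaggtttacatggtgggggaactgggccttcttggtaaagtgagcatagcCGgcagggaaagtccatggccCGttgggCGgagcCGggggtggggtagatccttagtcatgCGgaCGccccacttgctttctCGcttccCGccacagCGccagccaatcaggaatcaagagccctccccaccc
Dnmt3b: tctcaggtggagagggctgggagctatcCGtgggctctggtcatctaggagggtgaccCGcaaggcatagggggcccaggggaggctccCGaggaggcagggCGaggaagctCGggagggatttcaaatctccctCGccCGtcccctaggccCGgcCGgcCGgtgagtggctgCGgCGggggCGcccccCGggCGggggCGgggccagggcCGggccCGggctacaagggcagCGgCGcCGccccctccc

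The GC box letters GGGCGG, searched on both strands as all the motifs here, occurred in the windows of 7 of the 9 genes, against 32.7% of all windows. The printed Dnmt1 window and the Tdg window held none, while the window of the Dnmt1 start 7265 bases inside the gene held 2. The letters TTTNGCGC, a form of the site of the E2F factors that drive replication genes, were in 0 of the 9 windows and in 1.13% of all windows, although they occurred 1 time each in the windows of the inner starts of Dnmt1 (7265 bases inside) and Uhrf1 (992 bases inside), and the letters CCGGAAG, a form of the ETS site, in 0 of the 9 and in 6.91% of all. The letters CCCNNGGGA, a form of the EBF site, occurred in the Dnmt3b window alone, 176 bases before the start, and in 5.60% of all windows. These matches describe letters in the printed windows and no binding was measured here.

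Per length of exon, the maintenance genes were the most abundant of the 9 and the TET genes the least. The median over the 16 libraries was 62.3 CPM per kb for Uhrf1 and 46.6 for Dnmt1. Dnmt3b followed at 24.3 CPM per kb, Tdg at 14.8 and Dnmt3a at 6.87. Among the rest, Uhrf2 stood at 4.14, Tet1 at 2.31, Tet3 at 1.94 and Tet2 at 1.20 CPM per kb. Each gene was above the next in 16 of 16 libraries, except that Tet1 was above Tet3 in 13 of 16. Between libraries the ranges of neighbours overlapped more often, as for Uhrf1 (51.9 to 76.3 CPM per kb) and Dnmt1 (37.9 to 58.4), and for each neighbouring pair from Dnmt3a down to Tet2, so their order holds within a library and not beyond the spread over all 16. The Dnmt3b level per length was therefore above that of Dnmt3a throughout, by a factor of 2.84 to 4.48. The lengths count all annotated exons, and Dnmt3a has 16642 such bases against 5106 in Dnmt3b. Without the division by length, the medians were 124 CPM for Dnmt3b and 114 CPM for Dnmt3a, with overlapping ranges. Dnmt3a was then the higher in some libraries, as in MPP4 replicate 4 labelled WT, at 132.5 against 115.6 CPM. The median of Dnmt1 was then above that of Uhrf1, at 344 against 265 CPM. The dot plot of levels per exon length shows the order with its gaps on a log axis.

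**Figure D1:**
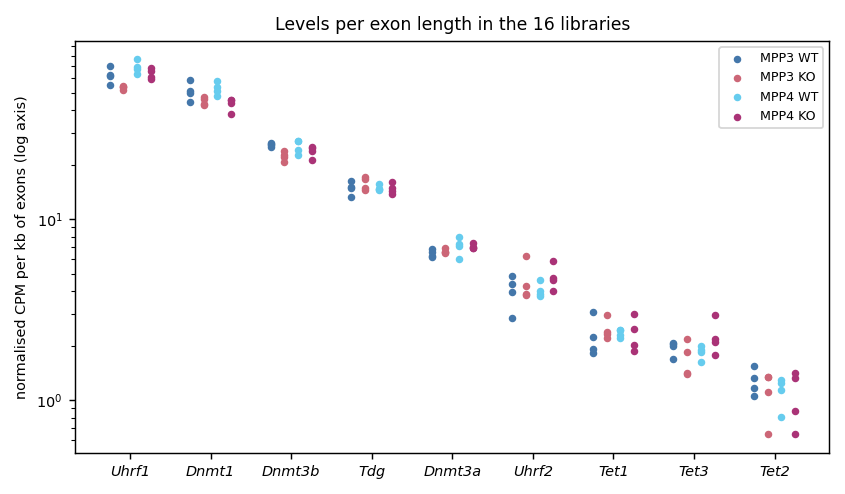
Each dot is 1 of the 16 libraries and gives the normalised CPM per kilobase of annotated exons on a log axis, with the 9 genes ordered by their median and the colours marking the 4 groups. The dots run from Uhrf1 (median 62.3) down to Tet2 (median 1.20), and the ranges of several neighbours overlap, those of Uhrf1 and Dnmt1 and those from Dnmt3a down to Tet2.

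The first question was whether the genes differ between mice labelled KO and mice labelled WT in MPP3, the myeloid-biased population. The maintenance pair and Dnmt3b were at lower values in the libraries labelled KO, and none of the 9 genes passed the test. Uhrf1 stood at 300.5, 267.8, 233.9 and 262.9 CPM in the libraries labelled WT and at 230.4, 228.5, 228.8 and 221.0 CPM in those labelled KO. All 4 libraries labelled KO were below the lowest library labelled WT, and they lay closely together. The fitted log2 fold change was -0.23 ± 0.08 (SE), or 0.853-fold, with an FDR of 0.286 in edgeR's quasi-likelihood test with Benjamini-Hochberg adjustment. Dnmt3b stood at 134.7, 127.1, 132.1 and 131.6 CPM in the libraries labelled WT and at 115.2, 112.5, 105.3 and 121.7 CPM in those labelled KO. The groups again did not overlap, and the log2 fold change was -0.21 ± 0.07 (SE) with an edgeR FDR of 0.319. Dnmt1 stood at 430.7, 377.7, 327.5 and 366.2 CPM in the libraries labelled WT and at 339.1, 348.1, 319.9 and 314.8 CPM in those labelled KO. Here the lowest library labelled WT fell within the range of those labelled KO, and the log2 fold change was -0.18 ± 0.08 (SE) with an edgeR FDR of 0.456.

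In MPP3 edgeR thus called 0 of the 9 genes at an FDR under 0.1, against 0.0676% of all genes tested, and DESeq2 also called 0, against 1.82%. At an unadjusted p under 0.05 stood 3 of the 9, against 10.5% of all genes, and the groups of Uhrf1 and Dnmt3b, 2 of the 9, did not overlap, against 4.58%. The median log2 fold change of the 9 genes was -0.18, beside -0.01 over all genes tested. Of the other 6 genes, Tet3 was at -0.19 with a 95% interval from -0.53 to 0.15, and Tet2 at -0.19 with an interval from -0.72 to 0.35. Dnmt3a, the other de novo enzyme, was at 0.04 with an interval from -0.12 to 0.19, and Tdg at 0.09 with an interval from -0.08 to 0.25. Uhrf2 was at 0.18 and Tet1 at 0.12, with intervals that reached from -0.19 to 0.56 and from -0.23 to 0.48. The intervals of the TET genes and Uhrf2 were the widest of the 9. Leaving out single MPP3 libraries moved these values. Tet3 was at -0.33 without mouse 4 and -0.10 without mouse 2 labelled KO, and Tet1 at 0.31 without mouse 3 labelled WT and 0.02 without mouse 1 labelled KO. Tet2 was at 0.01 without mouse 2 labelled KO and at 0.24 with age as a term, and Uhrf2 at -0.01 without mouse 1 labelled KO. Without mouse 1 labelled WT, Dnmt3a was at 0.02 and Tdg at 0.04, and without mouse 4 labelled WT at 0.07 and 0.13.

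Mouse 1 labelled WT had the highest Dnmt1 and Uhrf1 level in either population, and without its 2 libraries the MPP3 log2 fold change of Dnmt1 was -0.11 in place of -0.18. The summed level of 4 plasma cell markers moved with the same labels, from 107 to 525 CPM in MPP3 labelled WT and from 5.43 to 93.0 CPM in MPP3 labelled KO, where Jchain, Igkc and Mzb1, 3 of the 4, had 0 counts in at least 1 library while Sdc1 stood at 9.33 ± 3.43 CPM against 7.40 ± 3.04 CPM, and its part in these values was not tested. Of 5 mast cell and basophil markers, whose sum overlapped between labels, Mcpt8 did not overlap in MPP3, at 26.1 to 38.1 CPM in the libraries labelled WT and 42.1 to 68.0 CPM in those labelled KO, and its part was not tested either. In bulk RNA, fewer cells of a type and less RNA per cell cannot be told apart. In its single-cell RNA data, the paper reports genes of the Ig kappa light chain and the J chain as lowered in early progenitor clusters after Ebf1 deletion. It reports the lower Ig gene expression in the bulk data of MPP3 and MPP4 as well.

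**Figure D2:**
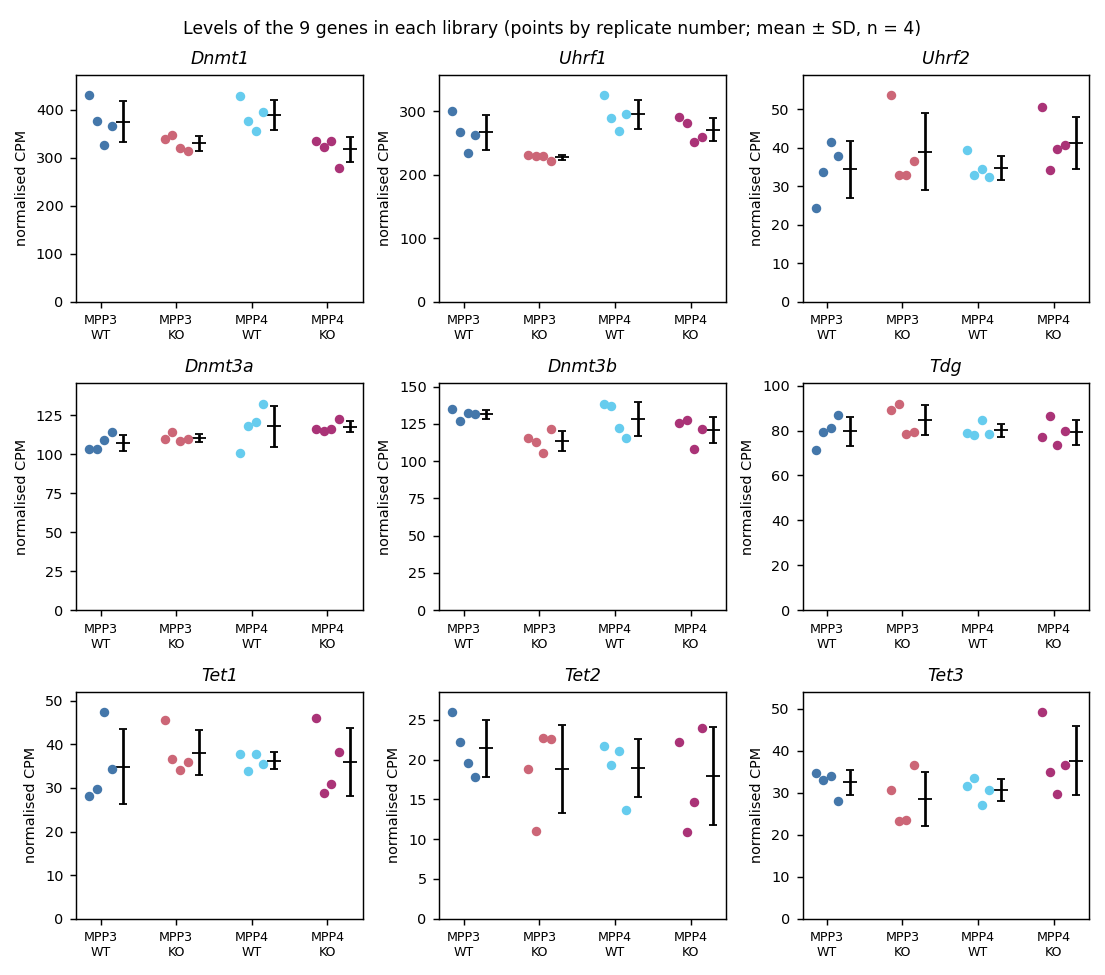
Each panel shows 1 gene, with normalised CPM on an axis that starts at 0, 4 points per group in the order of the replicate numbers, and a bar for the mean ± SD (n = 4). Uhrf1 and Dnmt3b do not overlap between labels in MPP3, Dnmt1 does not overlap between labels in MPP4, and the TET genes and Uhrf2 spread widely within groups.

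In the same question for MPP4, the lymphoid-biased population, Dnmt1 had the lowest p-value of the 9 genes. Its level was 428.1, 376.7, 355.0 and 395.2 CPM in the libraries labelled WT and 334.5, 322.7, 334.3 and 279.7 CPM in those labelled KO. All 4 libraries labelled KO lay below all 4 labelled WT. The log2 fold change was -0.29 ± 0.08 (SE), or 0.818-fold, with a 95% interval from -0.47 to -0.11 and an edgeR FDR of 0.188. DESeq2's Wald test called Dnmt1 with an FDR of 0.0730 and a log2 fold change of -0.28, whereas 0 of the 9 passed in edgeR, where its FDR lay between 0.129 and 0.417 over the alternatives. Uhrf1, its partner, stood at 325.0, 289.6, 268.8 and 295.2 CPM in MPP4 labelled WT and at 290.8, 281.6, 251.9 and 258.9 CPM in MPP4 labelled KO. These groups overlapped, and the log2 fold change was -0.12 ± 0.08 (SE) with an edgeR FDR of 0.516. Without the MPP4 library of mouse 1 labelled WT, the Uhrf1 value was -0.07. Dnmt3b was at -0.09 with a 95% interval from -0.25 to 0.07, and leaving out 1 library gave values from -0.13, without the MPP4 library of mouse 4 labelled WT, to -0.04, without that of mouse 3 labelled KO.

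Markers of the sorted cells moved with the same labels in MPP4. Flt3 lay between 1164 and 1362 CPM in the libraries labelled WT and between 938 and 1093 CPM in those labelled KO. Kit, the receptor by which LSK cells are gated, lay between 498 and 578 CPM and between 381 and 431 CPM, so neither gene overlapped between labels. The sum of the 6 sorted progenitor markers also did not overlap, at 3712 to 4122 CPM in the libraries labelled WT and 3311 to 3562 CPM in those labelled KO, although the list did not move together. Ly6a, which encodes Sca-1, was at higher values in those labelled KO with no overlap, and Cd48 had a mean of 299 ± 35.1 CPM (SD, n = 4) there against 243 ± 20.5 CPM, with overlap. Nor did the sum of 3 endothelial markers, at 30.5 to 33.4 CPM and 22.4 to 28.1 CPM, of which Emcn alone gave 30.1 to 33.3 CPM and 22.4 to 27.9 CPM, whereas Cdh5 and Kdr reached at most 0.206 and 0.745 CPM. In MPP3, Kit did not overlap either, at 705 to 838 CPM in the libraries labelled WT and 644 to 693 CPM in those labelled KO. The part of these markers in the values of Dnmt1, Uhrf1 and Dnmt3b was not tested.

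In MPP4 edgeR called 0.0169% of all genes and DESeq2 2.58%, so the single DESeq2 call is read against the latter. The paper used DESeq2 with the same FDR limit. The DESeq2 counts here equal those of the paper, 102 higher and 113 lower in MPP3 and 153 higher and 152 lower in MPP4. At an unadjusted p under 0.05 stood 1 of the 9 genes, Dnmt1, against 12.8% of all genes, and Dnmt1 was also the 1 gene whose groups did not overlap, against 7.27%. The median log2 fold change of the 9 genes was -0.02, beside -0.01 over all genes. Dnmt3a, Tet1 and Tdg were near 0, at -0.01, -0.01 and -0.02, and their intervals ran from -0.16 to 0.15, from -0.36 to 0.34 and from -0.18 to 0.15. Tet2 was at -0.07 with an interval from -0.61 to 0.46, at 0.39 with age as a term, and at -0.25 to 0.10 when 1 library was left out.

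Tet3 and Uhrf2 had positive log2 fold changes in MPP4, and neither passed the test. Tet3, known for oxidising the paternal genome of the zygote, stood at 31.7, 33.4, 27.0 and 30.6 CPM in MPP4 labelled WT and at 49.2, 34.9, 29.8 and 36.5 CPM in MPP4 labelled KO. The groups overlapped, and the highest value came from replicate 1 labelled KO, with a log2 fold change of 0.29 ± 0.16 (SE) and an edgeR FDR of 0.459. Uhrf2 stood at 39.4, 33.0, 34.6 and 32.4 CPM in the libraries labelled WT and at 50.5, 34.4, 39.6 and 40.8 CPM in those labelled KO, a log2 fold change of 0.25 ± 0.18 (SE) with an FDR of 0.581. Without the MPP4 library of mouse 1 labelled KO, the highest of its group for both genes, the log2 fold change of Tet3 was 0.14 and that of Uhrf2 0.13. The same mouse had the highest Uhrf2 level in MPP3 as well, at 53.7 CPM.

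Whether the difference between labels itself differed between the populations was tested as an interaction, MPP3 minus MPP4. edgeR called 0 of the 9 genes, against 0% of all genes tested, DESeq2 called 0 of the 9, against 0.0676% of all, and 0 of the 9 had an unadjusted p under 0.05, against 2.28% of all genes. The largest estimate was that of Tet3, -0.48 ± 0.23 (SE), with an edgeR FDR of 1.00. Its log2 fold change between labels was -0.19 in MPP3 and 0.29 in MPP4, and without the MPP4 library of mouse 1 labelled KO the interaction estimate was -0.33. For Dnmt1 the interaction was 0.11 with a 95% interval from -0.14 to 0.36, and for Uhrf1 -0.11 with an interval from -0.33 to 0.12. Leaving out 1 library gave 0.05, without the MPP3 library of mouse 3 labelled WT, to 0.18, without that of mouse 1 labelled WT, for Dnmt1 and -0.16 to -0.04 without the same libraries for Uhrf1. The data thus do not show that the values of either gene differed between labels more in one population than in the other.

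**Figure D3:**
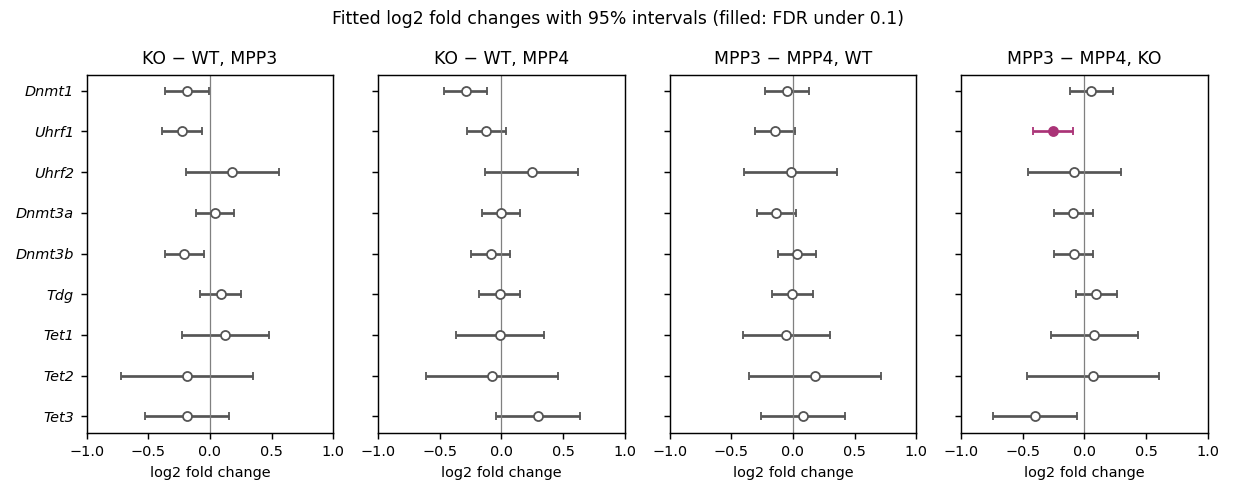
Points give the fitted log2 fold change of each gene in 4 comparisons and bars its 95% interval, on a common axis from -1 to 1. The filled point, Uhrf1 at -0.25 in MPP3 against MPP4 of mice labelled KO, is the 1 estimate with an edgeR FDR under 0.1.

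MPP3 and MPP4 were then compared within each label. Uhrf1 was lower in MPP3 than in MPP4 of mice labelled KO. In the fit without the mouse as a block, it was the 1 gene of the 9 that edgeR called in either label. The 4 MPP3 libraries labelled KO, between 221.0 and 230.4 CPM, all lay below the 4 MPP4 libraries, between 251.9 and 290.8 CPM. The log2 fold change was -0.25 ± 0.08 (SE), or 0.839-fold, with an edgeR FDR of 0.0343. With the mouse as a block the FDR was 0.00163, and without the MPP4 library of mouse 1 labelled KO it was 0.104 at a log2 fold change of -0.22. In mice labelled WT the populations overlapped, between 233.9 and 300.5 CPM in MPP3 and between 268.8 and 325.0 CPM in MPP4. The log2 fold change was -0.15 ± 0.08 (SE) with an edgeR FDR of 0.284, and with the mouse as a block -0.15 ± 0.05 (SE) with an FDR of 0.0421, which is a call. In the fit without the block, leaving out the MPP3 library of mouse 1 labelled WT gave -0.21 with an FDR of 0.0917. Leaving out the MPP3 library of mouse 3 or the MPP4 library of mouse 1 labelled WT gave -0.09 or -0.10 instead, with an FDR of 0.595 or 0.540.

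Within mice, Uhrf1 was lower in MPP3 in 8 of 8 mice, a direction shared by all 8 mice for 21.6% of all genes. The log2 difference was -0.11, -0.11, -0.20 and -0.17 in the mice labelled WT and -0.34, -0.30, -0.14 and -0.23 in the mice labelled KO, a mean of -0.20 with an SD of 0.0841. Dnmt1, its partner, was lower in MPP3 in 3 of 8 mice, with a mean of 0.00 and a range from -0.12 to 0.17. Dnmt1 therefore had no common direction, and its fitted log2 fold changes were -0.05 with a 95% interval from -0.23 to 0.13 in mice labelled WT and 0.06 with an interval from -0.12 to 0.23 in mice labelled KO.

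In all, edgeR called 0 of the 9 genes between populations in mice labelled WT, against 15.1% of all genes, and 1 of the 9 in mice labelled KO, against 17.9%. With the mouse as a block it called 1 of 9 in mice labelled WT, against 24.8%, and 2 of 9 in mice labelled KO, against 28.3%. DESeq2 called 0 of 9 in mice labelled WT, against 16.6%, and 2 of 9 in mice labelled KO, against 19.7%. At an unadjusted p under 0.05 edgeR had 0 of 9 in mice labelled WT, against 22.1% of all genes, and 2 of 9 in mice labelled KO, against 25.4%. The populations did not overlap for 0 of the 9 genes in mice labelled WT, against 15.9% of all genes, and for 2 of the 9 in mice labelled KO, against 17.2%. With 9 genes, shares this near those of all genes are no result about the members.

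The second call under DESeq2 and under the block was Tet3. In mice labelled KO it stood at 30.7, 23.3, 23.6 and 36.5 CPM in MPP3 and at 49.2, 34.9, 29.8 and 36.5 CPM in MPP4. The ranges overlapped, although 4 of 4 mice labelled KO were lower in MPP3, with log2 differences of -0.68, -0.59, -0.34 and -0.0010. The log2 fold change was -0.40 ± 0.16 (SE), with an FDR of 0.124 in edgeR, 0.0916 in DESeq2 and 0.0288 with the mouse as a block, and it was -0.24 with an FDR of 0.389 without the MPP4 library of mouse 1 labelled KO. Without the MPP3 library of mouse 4 or the MPP4 library of mouse 3 labelled KO, edgeR called it with an FDR of 0.0415 or 0.0625. In mice labelled WT its log2 fold change was 0.08 with a 95% interval from -0.26 to 0.42, or 0.03 without the MPP4 library of mouse 3 and 0.15 without the MPP3 library of mouse 4 labelled WT, and the test of the difference between labels is the interaction given above.

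The de novo pair had small log2 differences between populations. Dnmt3a was lower in MPP3 in 7 of 8 mice, and in mice labelled KO its MPP3 libraries, between 108.2 and 114.6 CPM, lay below its MPP4 libraries, between 115.2 and 122.9 CPM. Its log2 fold change was -0.13 ± 0.07 (SE) in mice labelled WT, with an edgeR FDR of 0.315, and -0.09 ± 0.07 (SE) in mice labelled KO, with an FDR of 0.517. Without the MPP4 library of mouse 1 labelled WT, the lowest of its group at 100.7 CPM, the first of these was -0.20 with an FDR of 0.0652, and without the MPP4 library of mouse 4 labelled WT it was -0.07 with an FDR of 0.665. Dnmt3b was at 0.03 with a 95% interval from -0.12 to 0.19 in mice labelled WT and at -0.09 with an interval from -0.25 to 0.07 in mice labelled KO. The latter was -0.05 without the MPP3 library and -0.14 without the MPP4 library of mouse 3 labelled KO. For Tdg the intervals ran from -0.17 to 0.16 and from -0.07 to 0.26, so any difference between the populations larger than these bounds lies outside the 95% intervals. Those of Tet2 ran from -0.36 to 0.71 and from -0.47 to 0.60, which leaves room for differences several times as large.

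**Figure D4:**
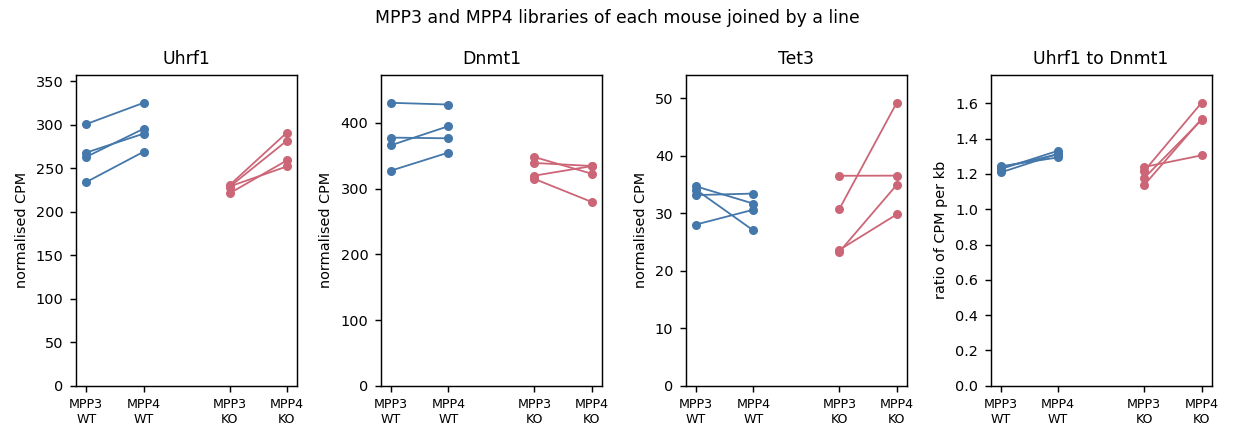
Lines join the MPP3 and MPP4 libraries of 1 mouse, blue for mice labelled WT and red for mice labelled KO, with normalised CPM of Uhrf1, Dnmt1 and Tet3 and, in the last panel, the ratio of Uhrf1 to Dnmt1 in CPM per kb. The Uhrf1 line rises from MPP3 to MPP4 in 8 of 8 mice, and the ratio does so as well, from at most 1.24 to at least 1.29.

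Ratios between members do not depend on the scaling of a library, and that of the maintenance pair did not overlap between the populations. The ratio of Uhrf1 to Dnmt1 in CPM per kb was 1.21, 1.23, 1.24 and 1.24 in MPP3 labelled WT and 1.31, 1.33, 1.31 and 1.29 in MPP4 labelled WT. In mice labelled KO it was 1.18, 1.14, 1.24 and 1.22 in MPP3 and 1.51, 1.51, 1.31 and 1.60 in MPP4. MPP3 lay below MPP4 in both labels with no overlap, while the labels overlapped within each population. The ratio of Dnmt3b to Dnmt3a was 4.25, 4.00, 3.94 and 3.76 in MPP3 labelled WT and 3.43, 3.20, 3.17 and 3.62 in MPP3 labelled KO. Those groups did not overlap, whereas in MPP4 the ratio ran from 2.84 to 4.48 in the libraries labelled WT and from 3.03 to 3.62 in those labelled KO. These ratios were looked at beside the levels and are given as values without a test. How often ratios of other gene pairs do not overlap was not computed, so they are no result about these pairs. Of single genes, 15.9% did not overlap between populations in mice labelled WT, 17.2% in mice labelled KO, and 4.58% between labels in MPP3. The Uhrf1 to Dnmt1 ratio also shares the Uhrf1 levels given above.

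The makeup of the TET transcripts overlapped between groups in every comparison. Tet1 made up 41.0% ± 7.07 (SD, n = 4) of the summed TET level in CPM per kb in MPP3 labelled WT, 46.9% ± 6.12 in MPP3 labelled KO, 44.3% ± 2.54 in MPP4 labelled WT and 41.3% ± 1.18 in MPP4 labelled KO. Tet3 made up between 32.1% and 40.1% on average and Tet2 between 18.6% and 23.3%. The summed TET level lay between 4.42 and 7.24 CPM per kb over the 16 libraries, with overlap in every comparison. Uhrf1 exceeded Uhrf2 by 8.65 to 24.8 times per length, again with overlap in every comparison.

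Genes that work with the 9 were described from 7 lists with 78 tested genes. Between labels, edgeR and DESeq2 each called 0 of them in MPP3, in MPP4 and in the interaction, where 4, 1 and 2 of the 78 had an unadjusted edgeR p under 0.05, against 10.5%, 12.8% and 2.28% of all genes. Between populations edgeR called 11 of the 78 in mice labelled WT, against 15.1% of all genes, and 15 in mice labelled KO, against 17.9%, so neither count is read as a result about the lists together. Of 7 tested partners of maintenance and de novo methylation, 0 were called in any comparison, and their medians between populations were -0.07 in mice labelled WT and 0.01 in mice labelled KO. DESeq2 called 11 and 17 of the 78, against 16.6% and 19.7%. Of 10 methyl-CpG readers, edgeR called 1, Zbtb38, a zinc finger protein that binds methylated DNA, which was higher in MPP3 of mice labelled KO by 0.41 ± 0.09 (SE, log2, edgeR FDR 0.00413), and DESeq2 also called Mbd3, a subunit of the NuRD complex, at -0.38 ± 0.16 (SE, log2, DESeq2 FDR 0.0962). Of 14 tested base excision and deamination genes, Parp1, which senses strand breaks, was lower in MPP3 by a log2 fold change of -0.21 ± 0.07 in mice labelled WT (edgeR FDR 0.0678) and -0.26 ± 0.07 in mice labelled KO (FDR 0.0174). Neil3, a glycosylase of replicating cells, was lower in MPP3 of mice labelled KO at -0.39 ± 0.13 (FDR 0.0637).

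The called gene of these lists with the largest difference between populations was Idh1, whose enzyme makes 2-oxoglutarate, the cosubstrate of TET enzymes. It stood at 67.5 ± 8.85 CPM (SD, n = 4) in MPP3 and 43.9 ± 2.03 CPM in MPP4 of mice labelled WT, and at 97.1 ± 25.2 CPM in MPP3 and 41.9 ± 9.57 CPM in MPP4 of mice labelled KO. It was higher in MPP3 by 0.62 ± 0.18 (SE, log2, edgeR FDR 0.0302) in mice labelled WT and by 1.22 ± 0.18 (FDR 0.000149) in mice labelled KO. It was 1 of 5 tested genes of its list, since 2 of the 7 listed names were misspelt and are not analysed here. Of 9 methyl donor genes, Mat2b, a regulatory subunit of S-adenosylmethionine synthesis, was called, at 0.21 ± 0.07 (SE, log2, edgeR FDR 0.0662) in mice labelled KO.

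Because Dnmt1 and Uhrf1 are transcribed mainly in dividing cells, their values were set beside 2 lists of cycling genes. Of 21 replication genes, edgeR called 0 between populations in mice labelled WT and 1 in mice labelled KO, Gins2 of the replicative helicase, which was lower in MPP3 at -0.33 ± 0.10 (SE, log2, FDR 0.0371). Their medians were 0.02 and -0.05, beside -0.00039 and -0.0079 over all genes tested. Of 12 mitosis genes, 9 were called lower in MPP3 in mice labelled WT, against 8.33% of all genes called lower, and 9 in mice labelled KO, against 9.18%. The estimates of 12 of 12 were negative in both labels, with medians of -0.35 and -0.36. The kinase genes Plk1 and Aurka were at -0.54 ± 0.14 and -0.48 ± 0.10 (SE, log2, edgeR FDR 0.0194 and 0.00470) in mice labelled WT and at -0.57 ± 0.14 and -0.54 ± 0.10 (FDR 0.0111 and 0.00168) in mice labelled KO. The third was Cenpf, a kinetochore protein gene, at -0.46 ± 0.13 (FDR 0.0293) and -0.52 ± 0.13 (FDR 0.0120). The summed mitosis level lay between 1767 and 2067 CPM in MPP3 and between 2199 and 2695 CPM in MPP4, so it moved with the populations as Uhrf1 did, and its part in the Uhrf1 value was not tested. The 5 mast cell and basophil markers also moved with them, with sums from 160 to 359 CPM in MPP3 and from 19.1 to 35.7 CPM in MPP4, where Cma1 and Gzmb had 0 counts in every library. The sum of 6 neutrophil markers lay between 12.2 and 47.0 CPM in MPP3 and between 1.72 and 8.42 CPM in MPP4 of mice labelled WT, and between 9.34 and 76.6 CPM and between 3.62 and 15.4 CPM in mice labelled KO, where it overlapped. Of these markers, S100a8 lay between 5.05 and 21.8 CPM in all MPP3 libraries and between 0.565 and 3.63 CPM in all MPP4 libraries. Of the plasma cell markers, Sdc1 lay between 4.33 and 13.3 CPM in all MPP3 libraries and between 50.1 and 142 CPM in all MPP4 libraries. In mice labelled WT, Jchain and Igkc went the other way, at 34.5 to 133 and 67.6 to 381 CPM in MPP3. They lay at 0.165 to 7.24 and 1.08 to 17.4 CPM in MPP4 of those mice, while Mzb1 overlapped. Of the erythroid markers, whose sum overlapped, Klf1 lay at 4.12 to 11.8 CPM in MPP3 and 0.428 to 4.10 CPM in MPP4. The part of these markers was not tested.

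Between labels, edgeR called 0 of the cycling genes in either population, where it called only 0.0676% of all genes in MPP3 and 0.0169% in MPP4, so these counts are no result about the lists. The medians of the replication list were -0.02 in MPP3 and 0.07 in MPP4, and its summed level ran from 6097 to 6707 CPM in MPP3 labelled WT and from 5811 to 6282 CPM in MPP3 labelled KO. In MPP4 the sum ran from 5881 to 6414 CPM in the libraries labelled WT and from 6161 to 6471 CPM in those labelled KO, where Dnmt1 was at lower values. The medians of the mitosis list were -0.03 and -0.05. The plot of the lists shows the 9 genes beside them in the 4 comparisons.

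**Figure D5:**
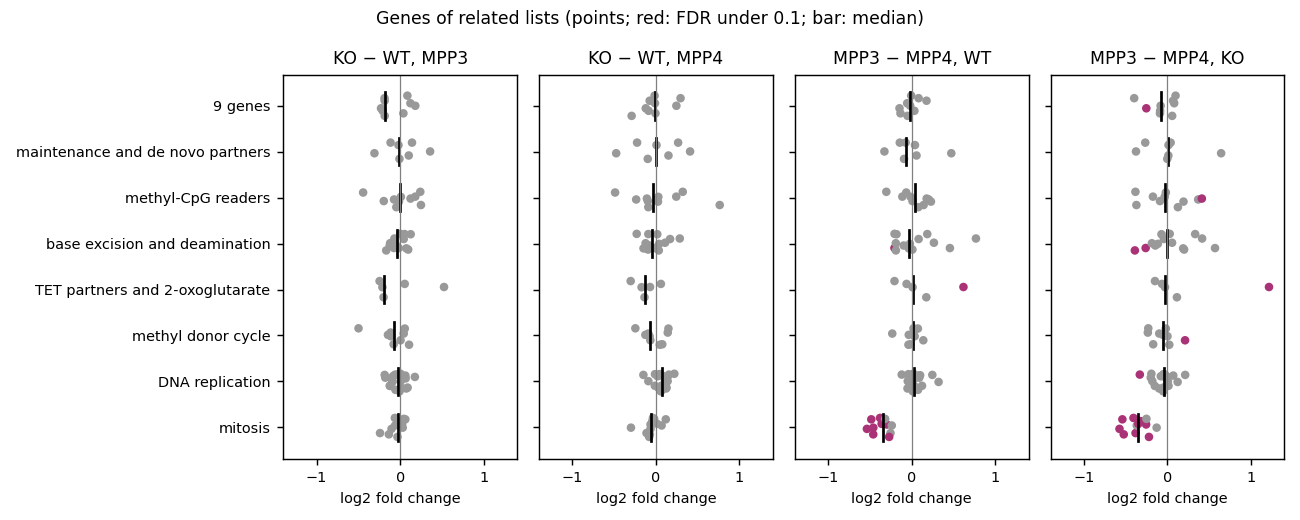
Each dot is 1 gene of a list, placed by its fitted log2 fold change in 4 comparisons, red where the edgeR FDR is under 0.1, and the black bar is the median of the list. Red dots of the mitosis list lie left of 0 in both comparisons of populations, 9 of 12 in each, and no dot is red in the comparisons of labels.

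Last, the genes whose log2 CPM over the 16 libraries was most like that of each member were read as a description, with Pearson's r and no test, since the libraries share groups and mice. Uhrf1 was most like Zmiz2, a transcriptional coregulator gene, at 0.92 and Prkd2, a kinase gene, at 0.92. Dnmt1 was most like Atp2a3, a calcium pump gene, at 0.91 and Anxa11 at 0.89, and Dnmt3b most like Dido1 at 0.88 and Gm37494 at 0.82. The values for the other 6 members lay between 0.79 and 0.87, led by Gm45828 and Cspp1 for Tet2, Gm13577 and Golga7 for Tet1, Smim10l2a and Ubl3 for Dnmt3a, Arl8a and Hist1h2bj for Tet3, Kctd1 and Gm17259 for Tdg, and Mcts1 and Senp6 for Uhrf2. Among the members, the highest r was that of Uhrf2 and Tet1 at 0.77, followed by Dnmt1 and Uhrf1 at 0.66 and Dnmt3b and Uhrf1 at 0.60. The lowest was that of Tet2 and Tdg at -0.51.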

How the data were processed

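Poly(A) RNA of 16 libraries was analysed from the raw read counts per gene that the authors deposited for each population, with no normalisation. Per the submitters' notes and the study's methods, trimmed paired-end reads were aligned to mm10 with STAR 2.7.3a and counted with featureCounts 2.0.0. Annotation release and strand use are not given in the sources used here. The authors also deposited a normalised signal table, counts over a DESeq2 1.28.1 size factor, which was used only as a check: for the 9 genes its entries lay within 0.00743% of count over factor. Symbols, coordinates and exon lengths come from GENCODE M21 (GRCm38), which named 47224 of 47937 identifiers, and start-site windows from RefSeq (GRCm38.p6).

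Groups were taken from the labels. Counts were fitted in R 4.3.3 with edgeR 4.0.16 (TMM, quasi-likelihood F-test with legacy deviances, 16 libraries, 1 mean per group), for genes averaging over 100 counts in at least 1 group, which left out between 0.329% and 0.426% of a library's counts. P-values were adjusted over all 11831 genes (Benjamini-Hochberg, called at an FDR under 0.1), and 95% intervals use the SE and the fit's degrees of freedom. Replicates are described as biological, and replicate pairs differed by a chi-square of at least 31.2 per gene, far above sampling noise, so replicates were kept apart. No sequencing batch is given in the labels. Deviations of the MPP3 and MPP4 libraries of a mouse correlated between 0.274 and 0.528 in all 8 mice, so the mouse was a block in an alternative. The other alternatives were DESeq2 1.42.0 size factors, the DESeq2 Wald test, 2 other count filters, sex, age or the replicate number as a term, the 8 libraries compared alone, and leaving out each library or mouse 1 labelled WT. The fits were tested on simulated data.

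Named were the 9 genes, at most 3 called genes per list and comparison with the largest absolute log2 fold change, and the 2 genes most correlated with each member. Members, lists and tests were chosen with earlier results of these data known.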

Additional observations from a re-analysis of the deposited data

Results flagged for a closer look

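Dnmt3a in MPP4 replicate 4 labelled KO stood at 122.9 CPM, apart from the other 3 libraries of its group at 115.2 to 116.4 CPM by more than Dixon's 95% criterion allows. Tdg in MPP4 replicate 3 labelled WT stood at 84.6 CPM, apart from the other 3 at 78.2 to 79.0 CPM by the same criterion. The criterion was applied to 36 groups of levels and 28 groups of ratios, and chance marks about 1 in 20 groups.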

How the results depend on the processing

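Counts of called genes changed in 3 of the comparisons. Between labels in MPP4 the DESeq2 Wald test called 1 gene in place of 0. Between populations in mice labelled WT the replicate block by mouse called 1 in place of 0, and leaving out 1 library gave 0 to 1. Between populations in mice labelled KO the DESeq2 Wald test and the replicate block by mouse called 2 in place of 1, and leaving out 1 library gave 0 to 2. The other counts over the 9 genes did not change. The same replicate number in different genotypes did not pair libraries (correlations of -0.44 to 0.061, 0 of 8 libraries most like their own number), and that block called 0 of the 9 genes between labels, but 29 genes in place of 8 in MPP3 and 23 in place of 2 in MPP4 over all genes. Over all genes the DESeq2 Wald test called 215 and 305, sex as a term 58 and 183, age as a term 1 and 1, and the 8 libraries alone 1 and 21, in MPP3 and MPP4. Leaving out 1 library gave 1 (without MPP3 WT replicate 2) to 137 (without MPP3 WT replicate 3) in MPP3 and 1 to 41 (without MPP4 KO replicate 4) in MPP4, so the shares of all genes that edgeR called between labels rest on single libraries. Of 1116 single-gene values under an alternative, 1053 kept direction and side of the threshold, 8 newly passed, 1 no longer passed and 54 changed sign, all of the last among values that did not pass. With age as a term the log2 fold change changed sign to 0.24 for Tet2 and -0.015 for Tdg between labels in MPP3, and to 0.054 for Tet1 and 0.39 for Tet2 between labels in MPP4. With DESeq2 size factors the log2 fold change changed sign to 0.0058 for Dnmt3a and 0.00067 for Tet1 between labels in MPP4. With the DESeq2 Wald test the log2 fold change changed sign to 0.0058 for Dnmt3a and 0.00067 for Tet1 between labels in MPP4. With filterByExpr the log2 fold change changed sign to 0.0029 for Dnmt3a between labels in MPP4. With mouse 1 labelled WT left out the log2 fold change changed sign to 0.012 for Tet1 and 0.0014 for Tet2 between labels in MPP4, and to 0.19 for Uhrf2, 0.063 for Tet1 and 0.045 for Tdg between populations in mice labelled WT. Leaving out 1 library gave log2 fold changes that crossed 0 between labels in MPP3 Uhrf2 -0.012 to 0.29 and Tet2 -0.29 to 0.0052, between labels in MPP4 Dnmt3a -0.074 to 0.055, Tet1 -0.15 to 0.083, Tet2 -0.25 to 0.10 and Tdg -0.060 to 0.018, in the interaction Dnmt3a -0.016 to 0.11, Uhrf2 -0.26 to 0.048 and Tet2 -0.29 to 0.080, between populations in mice labelled WT Dnmt1 -0.12 to 0.011, Dnmt3b -0.015 to 0.071, Uhrf2 -0.12 to 0.11, Tet1 -0.24 to 0.035 and Tdg -0.050 to 0.044, and between populations in mice labelled KO Dnmt1 -2.8e-05 to 0.083, Uhrf2 -0.28 to 0.029, Tet1 -0.018 to 0.22 and Tet2 -0.11 to 0.26. The causes were not tested. With 4 libraries a group, the 95% intervals were widest for the TET genes and Uhrf2.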
